A study of Mus musculus with 11 samples.

Results

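The small RNA content of cells on the last days of reprogramming, days 7 and 8, was compared with that of 2 pluripotent cultures, an established iPSC line and ESCs, to describe what still separated the cultures from pluripotent lines. Both days were set against both lines by the labels, as 2 libraries against 2 of the 11 in the series, and 1418 of 3859 small RNA transcripts were abundant enough to be compared. The day 7 and day 8 libraries came from secondary mouse embryonic fibroblasts (MEF) labelled Mbd3f/-. Such cells hold 1 floxed and 1 deleted copy of Mbd3, which encodes part of the chromatin-repressing NuRD complex. A doxycycline-inducible transgene drove Oct4, Klf4, Sox2 and Myc (OKSM) in them. The iPSC library is an established line of this system. The ESC library carries the label Mbd3f/-, while its data column is named V6_5, a standard wild-type ESC line, so its genotype is not settled by the labels. Day 7 and day 8 cells and both lines shared irradiated human foreskin fibroblast feeders, and the medium of both the later reprogramming days and the lines held LIF and 2i, inhibitors of MEK and GSK3. The lines were taken from a serum-free N2B27 medium, and the reprogramming cells had a serum-replacement medium, so medium and cell state cannot be told apart. The labels do not say whether the lines were kept on doxycycline. Each stage was 1 library, so there are no replicate cultures, and the only spread available is that between day 7 and day 8 and between the 2 lines.

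MicroRNAs (miRNAs) repress mRNAs that pair with their seed, the bases 2 to 8 of the mature strand, and genes with the same seed act on overlapping targets. Mouse pluripotent cells are known for the miR-290 and miR-302 clusters and for the miR-17 family, whose seeds are closely related and which speed the cell cycle, while let-7 miRNAs mark differentiated cells and are held back by Lin28 in pluripotent ones. Small nucleolar RNAs (snoRNAs) guide ribosomal RNA modification, methylation by the C/D box class and pseudouridylation by the H/ACA class, and most are cut from introns of host genes.

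The mature strands that the main differences turn on are printed 5′ to 3′ from RefSeq, with the seed in capitals. The first set shows the miR-106a-363 cluster, whose 6 genes lie between positions 52741693 and 52742567 of chromosome X (GRCm38, mm10). In it miR-106a and miR-20b have the seed AAAGUGC, miR-92a and miR-363 have AUUGCAC, and miR-18b and miR-19b each have a seed of their own.
miR-106a-5p: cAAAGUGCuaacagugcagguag
miR-18b-5p: uAAGGUGCaucuagugcuguuag
miR-20b-5p: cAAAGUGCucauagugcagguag
miR-19b-3p: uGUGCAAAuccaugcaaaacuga
miR-92a-3p: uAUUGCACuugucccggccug
miR-363-3p: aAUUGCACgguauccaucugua

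The second set shows the pluripotency seed AAGUGCU in miR-294 and miR-302b beside miR-291b, whose seed is AAGUGCA. It is followed by the let-7 seed in let-7a, let-7b and let-7c. Then come miR-181a, miR-181c and miR-181d, which share a seed but came from genes with different values. The miR-181b genes have the same seed and are not printed.
miR-294-3p: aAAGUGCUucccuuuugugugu
miR-302b-3p: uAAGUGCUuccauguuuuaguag
miR-291b-3p: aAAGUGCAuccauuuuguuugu
let-7a-5p: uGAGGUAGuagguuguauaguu
let-7b-5p: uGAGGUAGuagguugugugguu
let-7c-5p: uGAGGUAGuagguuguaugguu
miR-181a-5p: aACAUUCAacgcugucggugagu
miR-181c-5p: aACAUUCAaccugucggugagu
miR-181d-5p: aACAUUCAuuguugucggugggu

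Values are given as rescaled FPKM, the deposited FPKM (fragments scaled to transcript length and library size) divided by a median-ratio factor for each library. Differences are the mean of both lines minus the mean of both days on the log2(rescaled FPKM + 10) scale, on which 1 is a 2-fold difference of an abundant transcript. A transcript counted as higher or lower in the lines when both line values lay on the same side of both day values. The deposited FPKM summed to less in the day libraries: 136296000 on day 7 and 165140000 on day 8, against 300348000 in iPSC and 291874000 in ESC. FPKM is scaled to transcript length, so such a sum is not a share of reads. The size factors were 0.599, 0.866, 1.51 and 1.39 in the same order. The file holds no counts, but steps in its low values gave depths relative to day 7 of 0.94 on day 8, 0.679 in iPSC and 0.813 in ESC. At a length of 80 nt, a single read equalled 26.4 to 38.9 FPKM in the 4 libraries, so at that length values under about 100 FPKM rest on few reads. A read was worth more in shorter transcripts and less in longer ones. Members of the defining marker lists were checked first. All 10 measured miR-290 and miR-302 markers other than Mir295 were above 0 in the 4 libraries, and their rescaled sum was 18900500 on day 7, 18136000 on day 8, 14449200 in iPSC and 12717200 in ESC. Mir295 was listed at 0 in both lines, and its deposited FPKM was 25929200 on day 7 and 31201600 on day 8. A 0 for such an abundant gene can be a failed estimate, so it was left out of every count and fit. The 8 fibroblast markers were above 0 in all 4 libraries, at a rescaled sum of 19643600 on day 7, 13055400 on day 8, 3986790 in iPSC and 18911300 in ESC. The ESC library thus held as much fibroblast miRNA signal as the day libraries and the iPSC library less, and the part of this in the results was not tested.

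Of the 1418 transcripts, 365 (25.7%) were higher in both lines, 374 (26.4%) were lower in both lines, and 679 overlapped. Counts in the lists below are to be read beside these shares. With a 4-fold gap between the nearest line and day values, 40 (2.82%) were higher and 57 (4.02%) were lower. Without rescaling, 610 were higher and 159 lower, so the higher share of the separated transcripts was 79.3% in place of 49.4%, and the median of all differences moved from -0.01 to 0.67. A direction near 0 therefore depends on the scaling, and directions are relative to the median of all transcripts. limma with Benjamini-Hochberg adjustment called 0 transcripts at 0.05 in this comparison of 2 against 2, with 316 at an unadjusted p under 0.05 (148 higher and 168 lower) and a smallest adjusted p of 0.0727. With a pseudocount of 1 FPKM in place of 10, it called 21 higher and 18 lower. In 36 of the 365 higher transcripts both days were listed at 0, and in 24 of the 374 lower ones both lines were. By RNA type, 247 of 882 miRNA transcripts (28.0%) were higher and 159 (18.0%) lower, against 104 (25.2%) and 152 (36.8%) of 413 snoRNAs. Of 86 ribosomal RNA entries, most of them 5S copies, 5 were higher and 56 (65.1%) lower.

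**Figure D1:**
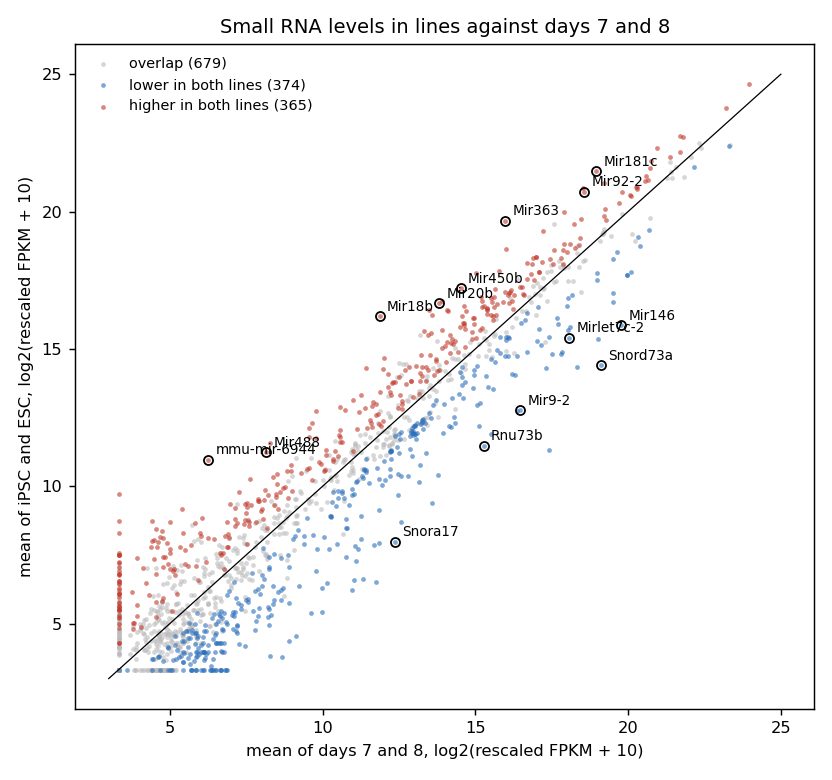
Each point is 1 of 1418 transcripts, with the mean of days 7 and 8 on the x axis and the mean of iPSC and ESC on the y axis, both as log2(rescaled FPKM + 10). The line marks equal levels. Red points (365) were higher and blue points (374) lower in both lines, and grey points (679) overlapped. Ringed points are named transcripts, such as Mir363 above the line and Snord73a below it. All of them but Mir488 are described in the text.

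The median absolute log2 difference over all transcripts was 0.585 between day 7 and day 8 and 0.676 between iPSC and ESC. It was 0.820 from day 7 to ESC and 0.898 from day 8 to ESC, but 1.13 and 1.22 from the same days to iPSC. The gap to the lines was thus wider for iPSC than for ESC, and the mean over the 4 day-line pairs was 1.615 times the mean of the 2 pairs within a group. It was 2.015 times without the ESC library. Among miRNA transcripts alone, day 8 lay 0.703 from ESC, and iPSC lay 0.835 from ESC. The day 8 library was therefore nearer to ESC in its miRNAs than the iPSC library was. From MEF, at 2.31, the miRNA distance to ESC was lower at each later library, while the miRNA distance to iPSC stayed between 1.17 and 1.28 from day 2 to day 8.

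**Figure D2:**
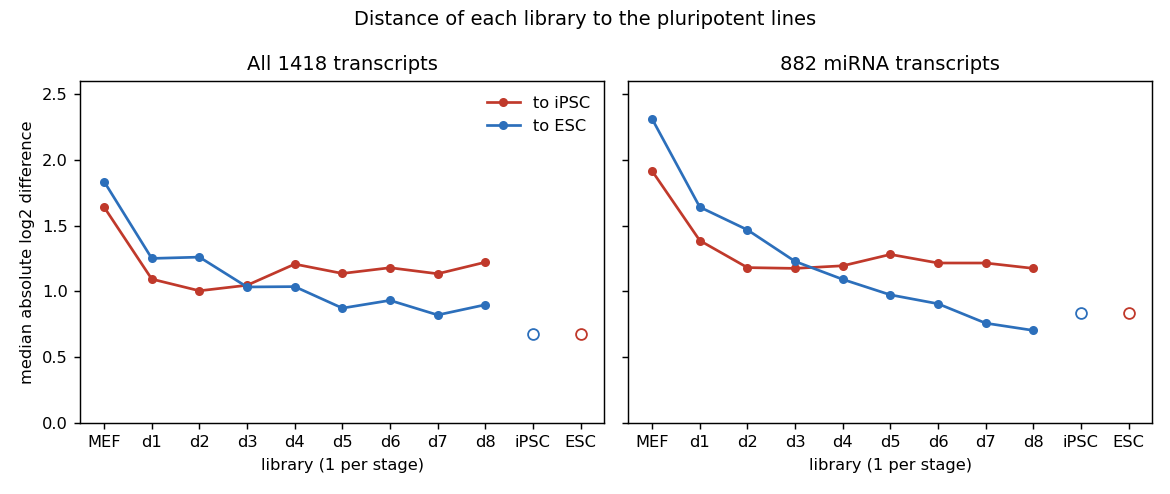
The y axis is the median absolute difference of log2(rescaled FPKM + 10) from each library on the x axis to iPSC (red) or ESC (blue), over 1418 transcripts on the left and 882 miRNA transcripts on the right. Open circles are the lines themselves. For miRNAs the distance to ESC was shorter at each later library, down to 0.703 on day 8, while that to iPSC lay between 1.17 and 1.28 from day 2. Over all transcripts the distance to ESC was 0.820 on day 7 and 0.898 on day 8, and that to iPSC was 1.00 on day 2 and 1.22 on day 8.

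The miR-17 family clusters stood above the days. Of 15 measured genes, 12 were higher in both lines and 0 lower, with a median difference of 0.92 beside -0.01 over all transcripts. The difference was largest in the X-linked miR-106a-363 cluster (5 of 6 higher, median 2.84) and smaller in miR-17-92 (4 of 6, median 0.74) and miR-106b-25 (3 of 3, median 0.71). limma called none of them.

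Mir18b, from the miR-106a-363 cluster printed above, measured 2176 on day 7, 6408 on day 8, 91854 in iPSC and 60594 in ESC, a difference of 4.32 ± 0.72 (SE; limma adjusted p = 0.124). Mir363 measured 37026, 111107, 845000 and 812083 in the same order, a difference of 3.69 ± 0.68 (adjusted p = 0.126). In both genes day 8 lay above day 7 and both lines lay well above day 8, so the cluster was still below the lines on the last day. Mir20b measured 9504, 21868, 98442 and 110007, and Mir106a, which has the same seed, measured 9840, 24112, 106502 and 111801. Their differences were 2.85 ± 0.53 (adjusted p = 0.128) and 2.82 ± 0.56 (adjusted p = 0.137). Mir92-2 measured 252872, 585643, 2028590 and 1479340, a difference of 2.17 ± 0.57 (adjusted p = 0.182). Mir19b-2 overlapped, at 178272 and 131059 on the days and 152369 and 248553 in the lines. Mir92-2 encodes the same miR-92a as Mir92-1 of the miR-17-92 cluster, as Mir19b-2 and Mir19b-1 encode the same miR-19b, so how reads of the shared strand were divided between each pair is uncertain. Mir92-1 measured 10273300, 9205240, 13779700 and 15073500, a difference of 0.57 ± 0.18 (adjusted p = 0.236).

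The 6 genes with the seed AAAGUGC (Mir17, Mir20a, Mir20b, Mir93, Mir106a and Mir106b) were all higher in both lines, with a median difference of 1.0. Among 7 genes with the seed AUUGCAC, 5 were higher and 0 lower. The 3 genes with the miR-19 seed GUGCAAA (Mir19a, Mir19b-1 and Mir19b-2) all overlapped, with a median of 0.35. Outside the X cluster the genes had different courses before day 7. Mir93 of miR-106b-25, carried in an intron of Mcm7, measured 218507 in MEF, 699575 on day 7, 1175160 on day 8, 2100410 in iPSC and 1372400 in ESC. Mir20a of miR-17-92 measured 123867 on day 6, 80847 on day 7 and 50161 on day 8, then 111065 in iPSC and 166758 in ESC. The lines were thus above the last days in a gene that had been near line level on day 6.

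**Figure D3:**
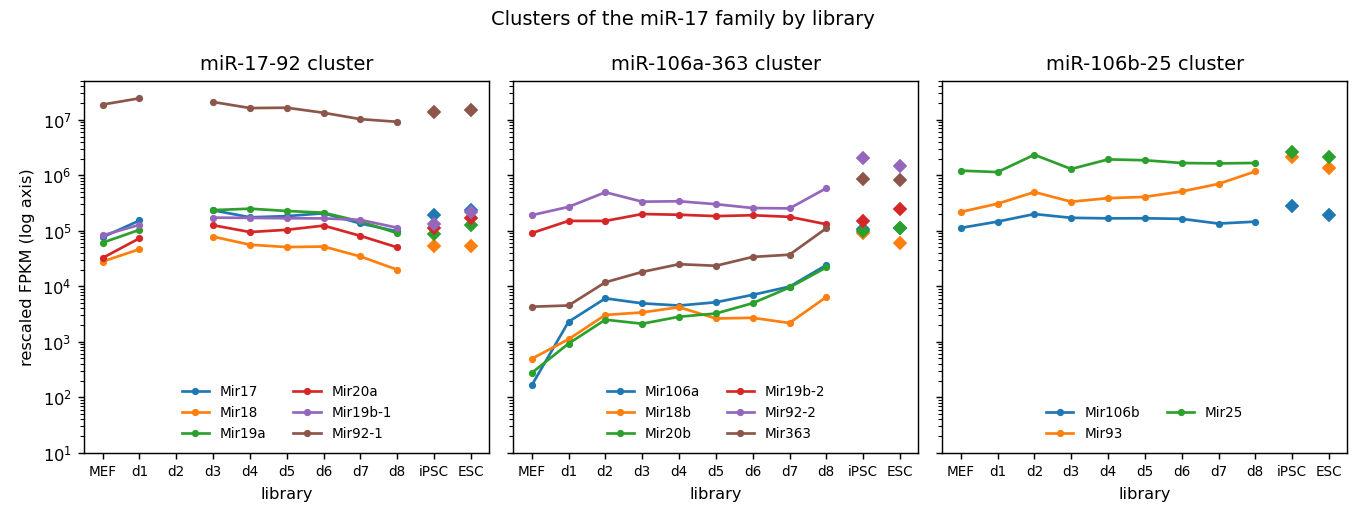
Rescaled FPKM (log axis) of the 15 genes by library, in 3 panels by cluster. Lines join MEF and days 1 to 8 and diamonds are the lines. The miR-17-92 genes were listed at 0 on day 2 and have no point there. In the miR-106a-363 panel Mir18b, Mir20b, Mir106a and Mir363 stand on day 8 well below both lines.

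After rescaling, the embryonic clusters as sets did not stand above the days. For miR-290, 2 of 6 genes were higher, 2 lower and 2 overlapped, with a median of 0.04. Without rescaling 4 were higher and 1 lower, with a median of 1.05, above the 0.67 of all transcripts. The lines also differed: the rescaled median was 0.28 for iPSC, above both days in 4 genes. It was -0.20 for ESC, below both days in 4 genes. Mir292 measured 10655300 on day 7, 10235500 on day 8, 5823300 in iPSC and 5097050 in ESC, a difference of -0.94 ± 0.18 (adjusted p = 0.132). Mir294 measured 2022040, 1418610, 795810 and 532654. Mir293 was on the other side, at 3352620 and 3465500 on the days and 4781750 and 4609920 in the lines. Mir291b, whose seed differs from that of its neighbours, measured 12180, 12226, 35715 and 163101. For miR-302, 3 of 5 genes were lower in both lines and 0 higher, with a median of -0.77. Without rescaling 0 were lower and 0 higher, and the median was 0.25, below the 0.67 of all transcripts. Mir302b measured 3377 on day 6, 25216 on day 7, 38831 on day 8, 11730 in iPSC and 12684 in ESC, a difference of -1.36 ± 0.31 (adjusted p = 0.155). Mir302d overlapped, at 89849 and 185339 on the days and 61358 and 95062 in the lines. All 5 miR-302 genes lay above both lines on day 8 and below both lines on day 6.

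The epithelial lists were mostly higher in the lines. In the miR-200 list, whose genes restrain mesenchymal transition factors, 5 of 7 were higher and 0 lower, with a median of 0.82. Mir429 measured 63135, 59097, 102643 and 113086, a difference of 0.82 ± 0.18 (adjusted p = 0.150). Mir141 measured 159310, 384168, 674629 and 1559990. Mir205 of skin epithelium overlapped, at 424320, 338673, 227447 and 398069. Mir183 measured 17652300, 14722100, 24754000 and 27478000, a difference of 0.69 ± 0.20 (adjusted p = 0.214). Its cluster neighbour Mir182 was listed at 0 in all 4 libraries and on day 6, after a deposited FPKM of 37508500 on day 5. These zeros can be failed estimates like those of Mir295. Mir182 stayed in the counts, as an overlap, because it was abundant in none of the 4 libraries.

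The let-7 family lay below the days. Of 11 measured genes 10 were lower in both lines (90.9%) and 0 higher, with a median of -1.95. Without rescaling 3 were lower and the median was -0.94. The distance was larger for iPSC (median -3.23 against the mean of the days) than for ESC (-1.13). Mirlet7g measured 816741 on day 7, 809421 on day 8, 359816 in iPSC and 387819 in ESC, a difference of -1.12 ± 0.17 (adjusted p = 0.122). Mirlet7d was similar, at 53496, 48094, 24009 and 23004. In these 2 genes both days agreed closely, as did both lines. Without rescaling the difference of Mirlet7g was -0.11, beside a median of 0.67 over all transcripts. Mirlet7c-2 measured 312286, 242945, 27088 and 69965, a difference of -2.66 ± 0.61 (adjusted p = 0.155). Mirlet7b measured 357662, 303229, 2885 and 150745, so its difference of -3.98 ± 2.39 was mostly that of the iPSC library. Mirlet7a-1 and Mirlet7a-2 encode the same let-7a, and their values (1030260, 1008790, 98263 and 444601 for Mirlet7a-1) cannot be separated with confidence. Mirlet7i overlapped, with 1125400 in ESC between the values of the days.

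Fibroblast genes gave a gap to iPSC and little or none to ESC. In the list of fibroblast and mesenchymal miRNAs 4 of 8 were lower in both lines and 0 higher. The median difference was -2.87 for iPSC and -0.26 for ESC. Without rescaling 1 of the 8 was lower in both lines, and the median over both lines was -0.78 in place of -1.79. Mir199a-1, processed to a miRNA of mesenchymal cells, measured 1185500 on day 7, 876340 on day 8, 52385 in iPSC and 858681 in ESC. Mir21 measured 4497690, 3088130, 1274830 and 5057600, and Mir143 measured 13169300, 8502040, 2594760 and 12413900. In these genes ESC lay within or just beyond the range of the days and iPSC stood apart. A similar order was seen in miR-221 and miR-222, which target the cell-cycle inhibitor p27: Mir221 measured 822517, 675219, 23278 and 484913. It was also seen in Mir100, at 576100, 493428, 4107 and 431961, and in Mir654 of the Dlk1-Dio3 locus, at 178999, 169458, 44.6 and 118231. The iPSC value of Mir654 rests on few reads, and its difference was the lowest of 54 genes of that locus. The locus did not have this order: its medians were 0.06 for iPSC and 0.08 for ESC. iPSC was above both days in 21 of its genes and below both in 15. All 4 cultures had the human feeders, and reads from mouse and human copies of a conserved miRNA cannot be told apart. Mir199a-1, Mir21 and Mir143 are part of the fibroblast marker sum given above, so its moving with them was fixed in advance and is no support. Mir221, Mir100 and Mir654 are not in that sum, and its part in their values was not tested.

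**Figure D4:**
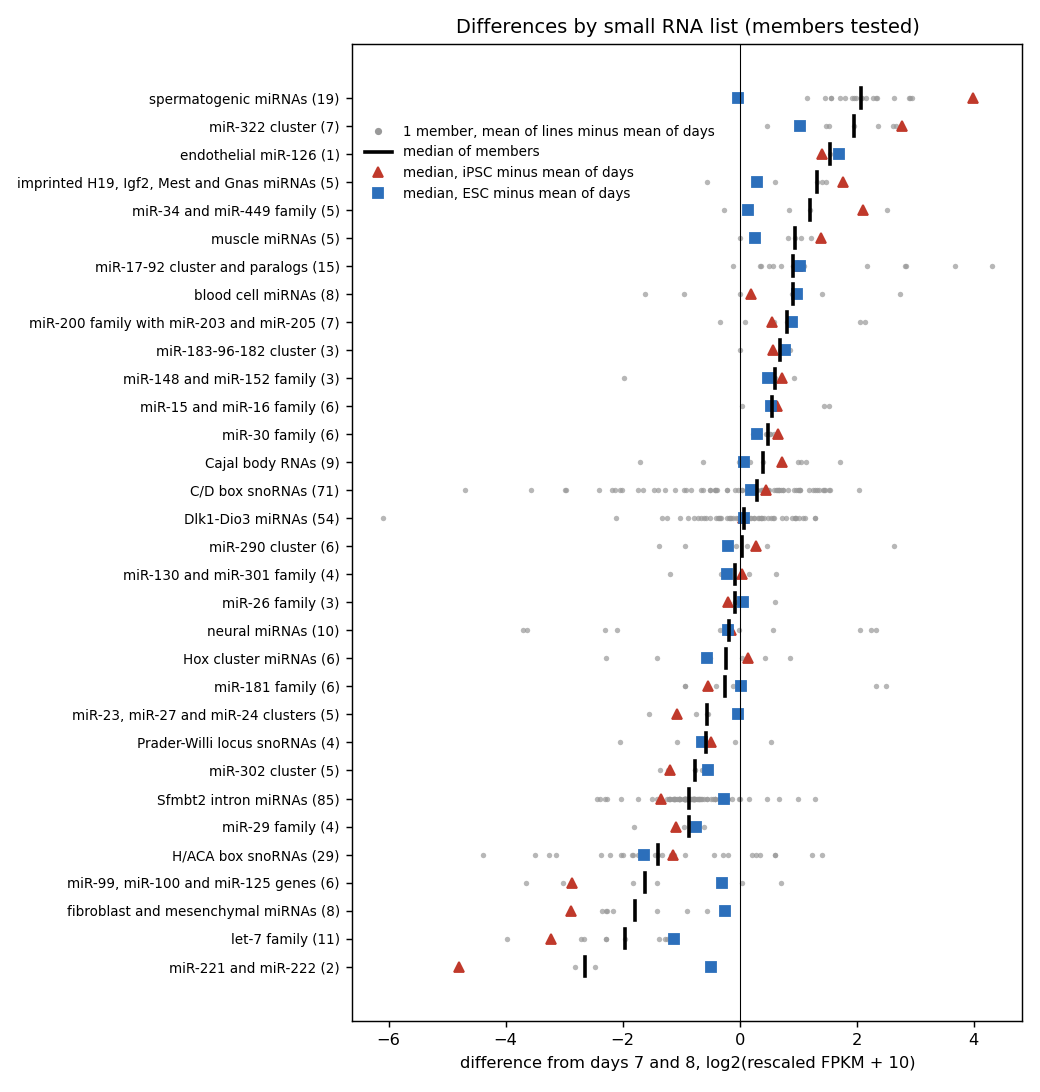
Each row is a list of small RNAs with the number of members tested, and the x axis is the difference from the mean of days 7 and 8 on the log2(rescaled FPKM + 10) scale. Grey points are members, black bars medians, red triangles and blue squares the medians for iPSC and ESC alone. In the miR-17-92 list and its paralogs both lines stand near 1, while in the let-7, fibroblast and spermatogenic lists the medians of the lines stand far apart.

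Other genes lower in the lines included some in which both lines were close to each other. Mir146, a regulator of innate immune signalling, measured 6247900 in MEF, 4179960 on day 6, 1512970 on day 7, 533995 on day 8, 51712 in iPSC and 67713 in ESC. Its difference was -3.92 ± 0.67 (adjusted p = 0.124), with day 8 between day 7 and the lines. Among 10 measured neural genes 4 were higher and 5 lower, with both miR-9 genes lower and the 3 miR-124 genes higher. Mir9-2 measured 162811, 51026, 7362 and 6613, a difference of -3.71 ± 0.72 (adjusted p = 0.133), and Mir9-3, with the same mature strand, had -3.63. How reads of that strand were divided between Mir9-2 and Mir9-3 is uncertain, so their agreement is not independent. Mir124a-3 measured 2000, 1422, 7543 and 6649, a difference of 2.06 ± 0.27 (adjusted p = 0.115). All 4 genes of the miR-29 family, which target collagens, were lower, with a median of -0.87. Without rescaling 0 were lower and 0 higher, and the median was 0.14, again below that of all transcripts. Mir23b measured 203356, 213664, 77397 and 66025, a difference of -1.54 (adjusted p = 0.107).

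Of the miR-181 family 2 members were higher in the lines and 4 overlapped, although all share 1 seed. Mir181c measured 344444 on day 7, 757255 on day 8, 2847230 in iPSC and 2950010 in ESC, a difference of 2.50 ± 0.50 (adjusted p = 0.137). Its neighbour Mir181d measured 259939, 552138, 1977370 and 1859870 (2.34 ± 0.48, adjusted p = 0.145). Both lie on chromosome 8, at 84178873 to 84178961 and 84178716 to 84178787 (GRCm38), where the annotation overlaps the germ-cell gene Nanos3. Mir181a-2 measured 2025330, 1443550, 523263 and 1522940. The miR-181c and miR-181d pair was thus higher in both lines, and the miR-181a genes were lower in iPSC than on the days and near them in ESC.

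The X-linked miR-322 cluster, known for slowing the cell cycle, had 6 of 7 genes higher and 0 lower, with a median of 1.96 (2.78 for iPSC and 1.04 for ESC). Mir450b measured 22168 on day 7, 25100 on day 8, 229553 in iPSC and 99607 in ESC, a difference of 2.68 ± 0.53 (adjusted p = 0.137). Mir322 measured 25433, 24922, 173262 and 55082. Mir351 measured 52855, 82353, 1217030 and 135319, and Mir503 overlapped. All 7 genes were higher in MEF than on days 7 and 8, with Mir351 at 9810450. The list of miRNA genes known from spermatogenesis, 18 on chromosome X and Mir879 on chromosome 5, had a median of 2.08, with 8 of 19 higher and 0 lower, but this was carried by iPSC. Their median was 4.00 for iPSC, which exceeded both days in all 19, and -0.03 for ESC, which exceeded both days in 8 and was below both in 9. Mir879 was among those higher in ESC too, at 4025, 1838, 30077 and 13674. Mir470 measured 193168, 197446, 3218490 and 180588, so in this gene days 7 and 8 were near the level of the ESC line. Several of these genes are near-identical copies (such as Mir465b-1 and Mir465b-2), whose shares of reads are uncertain.

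**Figure D5:**
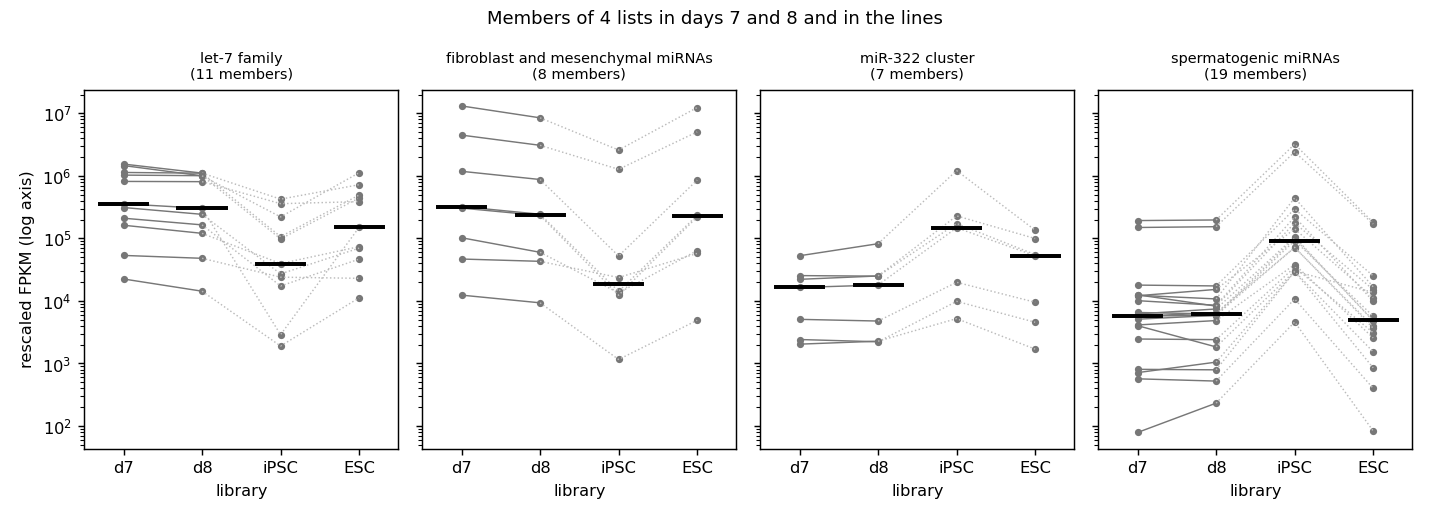
Rescaled FPKM (log axis) on day 7, day 8, iPSC and ESC of the members of 4 lists, 1 point per gene and library, with black bars for medians and lines joining the points of a gene. Of the let-7 genes 10 of 11 are lower in both lines, and of the miR-322 genes 6 of 7 are higher in both. The medians of the fibroblast and spermatogenic genes differ from the days in iPSC and lie near them in ESC, with single genes such as Mir879 higher in ESC as well.

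Smaller or mixed differences were found in further lists, beside 25.7% higher and 26.4% lower over all transcripts. In the miR-30 family 5 of 6 were higher with a median of 0.49, but under quantile normalization 0 were, with a median of 0.24. In the miR-15 and miR-16 family 5 of 6 were higher with a median of 0.55. Mir16-1 measured 1409940, 1149090, 1834040 and 1890540, and Mir195 measured 6029, 8717, 14900 and 29581. Mir449c, of the p53-linked miR-34 family, measured 122, 167, 824 and 922 (2.53 ± 0.25, adjusted p = 0.0952), but Mir34a overlapped. Mir126 of endothelium measured 40186, 64587, 134798 and 165988, and it was the 1 gene of its list. Among 8 blood cell genes 3 were higher, 2 lower and 3 overlapped. Mir142 was higher, at 21068, 53369, 372346 and 134754, and Mir486 was lower, at 66356, 49706, 20299 and 43269. Among 54 miRNAs of the imprinted Dlk1-Dio3 locus 11 were higher (20.4%) and 7 lower (13.0%), both under the shares of all transcripts, with a median of 0.08. This depended on the scaling and on the days: without rescaling 40 were higher and 0 lower, 28 were higher and 7 lower without day 7, and 11 were higher and 28 lower without day 8. Mir341 measured 62949, 39453, 113322 and 131893 (1.29 ± 0.34, adjusted p = 0.182). In the Sfmbt2 intron cluster 39 of 85 were lower and 1 higher, with a median of -0.87 (0.10 without rescaling). It was -1.34 for iPSC and -0.27 for ESC. Many of those copies share sequence and had few reads. Of the other named miRNAs with a high gap, mmu-mir-6944 measured 77.2 and 56.8 on the days, about 3 reads each, and 3917 and 1019 in the lines.

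Among snoRNAs with a mean of at least 1000 FPKM, the largest gap was that of Snord73a, a C/D box RNA in an intron of the ribosomal protein gene Rps3a1. It measured 522611 on day 7, 614812 on day 8, 22316 in iPSC and 21240 in ESC, and 11245 in MEF and 143671 on day 6. The difference was -4.70 ± 0.19 (adjusted p = 0.0727), and both days and both lines were tight pairs. Rnu73b, in the same host gene, measured 33009, 47244, 3707 and 2184 (-3.79 ± 0.42, adjusted p = 0.105). The gene sequences of both are shown to compare 2 neighbours that had the same direction, with the C box TGATGA and the D box CTGA in capitals. They lie on the minus strand of chromosome 3, at 86138791 to 86138858 (Snord73a) and 86140618 to 86140688 (Rnu73b; GRCm38), and their longest shared run is 13 bases.
Snord73a: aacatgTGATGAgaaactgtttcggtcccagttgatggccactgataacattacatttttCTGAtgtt
Rnu73b: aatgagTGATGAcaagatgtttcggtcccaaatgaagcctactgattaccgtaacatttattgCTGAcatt

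Direction was not shared by all snoRNAs of a host gene. Snord14c and Snord14d, copies in Hspa8 that differ at 2 positions, were lower in the lines: Snord14c measured 157541, 340024, 30167 and 28088 (-2.99 ± 0.49, adjusted p = 0.124). Snord14e of the same host measured 3061, 8966, 11890 and 17179 and was higher. Of 71 C/D box genes 31 were higher (43.7%) and 19 lower (26.8%), with a median of 0.30. Over all transcripts 25.7% were higher and 26.4% lower, so the lower share was near that of all. Snord52 measured 47107, 67646, 361855 and 150617, and Snord95 in an intron of Rack1 measured 118662, 141038, 337766 and 325294 (1.36 ± 0.19, adjusted p = 0.119). Of 29 H/ACA box genes 3 were higher (10.3%) and 20 lower (69.0%), with a median of -1.39, which was -0.42 without rescaling. Snora17 measured 4057, 6752, 332 and 175 (-4.38 ± 0.51, adjusted p = 0.105). Snora74a measured 455, 477, 47.3 and 41.4 (-3.13 ± 0.18, adjusted p = 0.0727).

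H/ACA RNAs are longer than most C/D RNAs, and length moved with direction. Of 157 snoRNAs of 100 nt or more, 81 (51.6%) were lower and 19 higher, with a median of -0.90. Of 256 shorter ones, 71 (27.7%) were lower and 85 higher, with a median of -0.01. For miRNA entries of 100 nt or more, 39 of 164 (23.8%) were lower and 37 (22.6%) higher, with a median of -0.002. Of 718 shorter miRNA entries, 120 (16.7%) were lower and 210 (29.2%) higher, with a median of 0.17. The libraries were size-selected on a gel, and the part of fragment length in the H/ACA and 5S values was not tested. Among 9 Cajal body RNAs, which guide modification of spliceosomal RNAs, 5 were higher and 2 lower. Scarna17 measured 32526, 42354, 106454 and 141602 (1.73 ± 0.28, adjusted p = 0.124), and Scarna10 was lower, at 94.6, 178, 37.6 and 29.3.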

How the data were processed

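The authors deposited FPKM per small RNA gene for 11 libraries, 1 per stage, made with a TruSeq small RNA kit. Per the submitters' processing notes, CASAVA 1.8.2, Bowtie2 2 and Cufflinks 2.2.1 were used on mm10; their roles are not stated there. Of 3859 transcripts, 3712 were found in GENCODE vM21 for type, position and length. Of 882 miRNA genes tested, 662 matched RefSeq (GRCm38.p6) mature strands. Libraries were rescaled by median ratios over 787 transcripts above 0 in all 11. Rows needed a mean of at least 10 FPKM (1419), and Mir295 was then left out. The rescaled FPKM were tested as log2(value + 10) with limma 3.58.1 in R 4.3.3, two-sided, with Benjamini-Hochberg adjustment over 1418 transcripts. The fit was also run on simulated data with independent errors. The outcome is not given here, and such a run cannot show how cultures vary. The error of the limma fit is the scatter between 2 days and between 2 lines, not between cultures. Named transcripts were the 12 largest gaps and 8 highest means in each direction, plus list members. Members, lists and tests were chosen with earlier results of these data known. Alternatives changed pseudocount, filter, scaling and libraries. Other genotypes were not analysed here.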

Additional observations from a re-analysis of the deposited data

How the results depend on the processing

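With the pseudocount at 1 FPKM, limma called 21 transcripts higher and 18 lower, without a filter 15 and 9, and with values of 0 kept 0 and 1; in the other alternatives it called 0. Without rescaling 610 were higher and 159 lower, 95 and 23 by 4-fold, and 31 of 36 named transcripts still stood apart. With a mean of at least 1000 FPKM, 236 were higher and 161 lower of 630, 8 and 13 by 4-fold. With a pseudocount of 100 FPKM, 6 and 29 stood apart by 4-fold. Leaving out 1 library gave 465 to 555 higher (555 without ESC) and 504 to 549 lower, and by 4-fold 62 to 123 higher and 85 to 131 lower; fewer values have to agree in such a count. The ratio of distances ranged from 1.445 to 2.015. Without iPSC the median of the spermatogenic miRNAs was -0.027, and without ESC 4.00, in place of 2.08. With days 5 and 6 in place of days 7 and 8, an alternative added after the data were seen, 28 stood below by 4-fold, 35 of 36 named transcripts kept their direction, Gm26083 turned to 0.14 and these list medians changed sign: miR-302 to 2.89 (5 of 5 higher), Dlk1-Dio3 to -1.01 (48 of 54 lower), H19, Igf2, Mest and Gnas to -0.19, miR-183 to -0.017, miR-148 to -0.029, miR-26 to 0.75 and Prader-Willi to 0.47. The H/ACA median kept its sign but moved from -1.39 to -0.05, with 4 higher and 9 lower. The causes were not tested. All 36 named transcripts kept their direction in each other alternative that tested them. They were chosen as non-overlapping in these same values. A change of pseudocount or leaving out 1 library therefore could not reverse them, and their direction there is no support. No paired analysis was possible because each stage is 1 library with no shared replicate numbers. At 80 nt, values under about 100 FPKM rest on few reads (for shorter transcripts the level is higher, for longer ones lower), so small differences there were not detectable at this depth.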
